A study of Mus musculus with 2 samples.

Results

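Transcription factor genes that pattern the pyloric sphincter and the curved stomach wall were followed in RNA-seq data from the mouse embryonic stomach. The members are the 7 genes Nkx2-5, Nkx3-2, Gata3, Sox9, Six2, Isl1 and Pitx1, out of 43346 annotated genes measured. The rule names them by symbol and sets no threshold on a measured value. Each library was made from total RNA of a single stomach of 1 embryo of strain B6NCrl at 14.5 days of gestation (E14.5). The study holds 1 group with 2 libraries, which the labels call biological replicates, collected on day 15 (replicate 1) and day 17 (replicate 2) of 1 month. No mutant, treatment or second stage was part of the design, so a member's level and its difference between the 2 embryos could be described, and no comparison between conditions could be tested. The labels record the sex of both samples as pooled, while expected counts of the Y-linked gene Ddx3y were 2550 for replicate 1 and 0 for replicate 2. The libraries therefore came from different embryos, which by this gene also differ in sex. Sex cannot be told apart from embryo in any difference between the replicates.

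The pylorus is the ring of smooth muscle that closes the stomach towards the duodenum. In vertebrate embryos, BMP signals received by the mesenchyme at this boundary are known to switch on the homeobox gene Nkx2-5 and the HMG-box gene Sox9, and in the mouse Isl1, Nkx2-5, Gata3 and Six2 are needed for parts of the sphincter. The stomach also bends to one side, and the Nodal signal, active on the left of the early embryo, sets the sidedness of the developing organs.

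5 of the 7 members encode homeodomain proteins, and a stretch of coding sequence is shown for Pitx1, Six2 and Isl1 because it separates members that belong to different binding classes. The homeodomain reads DNA with its recognition helix, and the residue at position 50 is known to weigh on which bases are preferred. The lines below give codons 46 to 55 of the homeobox, taken from GENCODE M21 coding sequences on mm10 and written 5′ to 3′, with codon 50 in capitals.
Pitx1: cgggtctggttcAAGaaccggcgagccaaa
Six2: agcaactggttcAAGaaccggcggcagcgc
Isl1: cgagtgtggtttCAAaacaagcggtgcaag
Pitx1 and Six2 have AAG, a lysine codon, at position 50. Isl1 has CAA, a glutamine codon. Over the whole homeobox of 180 bases, Pitx1 shared 81 bases with Isl1 and 80 bases (44.4%) with Six2, and Six2 shared 79 (43.9%) with Isl1. Despite the same codon 50, Pitx1 was thus no closer to Six2 than to Isl1 over the homeobox. The 6 members other than Pitx1 had whole expected counts in both libraries, within a tolerance of 0.005, which gives no sign of reads divided between them and a related gene.

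All 7 members were detected, defined as at least 1 TPM (a level corrected for transcript length and library size) in both libraries. Of all 43346 genes 34.9% passed this threshold, and of 21474 protein-coding genes 61.8% did. In order of mean level they ran Pitx1, Isl1, Sox9, Six2, Nkx2-5, Gata3 and Nkx3-2, spanning a 108-fold range. Pitx1 alone made up 69.5% of the summed TPM of the 7 genes in replicate 1 and 70.1% in replicate 2. Because each library is a whole stomach, few cells with much of a transcript and many cells with little of it cannot be told apart.

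**Figure D1:**
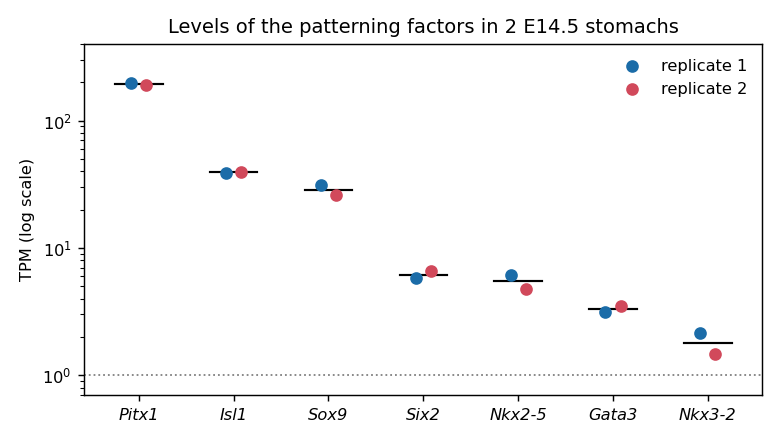
TPM (log axis) of the 7 patterning factors in replicate 1 (blue) and replicate 2 (red), with the mean as a black line and the detection threshold of 1 TPM dotted. Pitx1 stands near 195 TPM and Nkx3-2 at 1.48 to 2.13 TPM, and in one neighbouring pair alone, Six2 and Nkx2-5, do the points of the 2 genes overlap.

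Pitx1 is a paired-type homeobox factor best known for hindlimb and pituitary identity. The gene (ENSMUSG00000021506.7) lies on the minus strand of chromosome 13 at 55825051-55836192 (mm10). It had 199 TPM in replicate 1 and 192 TPM in replicate 2, a mean of 195.48 ± 5.20 (SD, n = 2), on 7202 and 7371 expected counts. Both libraries placed it far above the other members, and its mean was 4.98 times that of Isl1, the next gene in the order. Among 13271 detected protein-coding genes it ranked 630, with 95.3% of them lower.

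Isl1, a LIM-homeobox factor that in the mouse pylorus acts upstream of Gata3, was the next member by level. It is annotated on the minus strand of chromosome 13 at 116298281-116309689 (ENSMUSG00000042258.9). Its level was 38.9 TPM in replicate 1 and 39.6 TPM in replicate 2 (39.23 ± 0.467, SD, n = 2), from 1473 and 1445 expected counts. The libraries were nearly level, and 72.4% of detected coding genes were lower.

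Sox9, an HMG-box factor, marks the pyloric mesenchyme and is also used by epithelial progenitors, cartilage and crest-derived glia. It lies on the plus strand of chromosome 11 at 112782224-112787760 (ENSMUSG00000000567.5). The level was 31.3 TPM in replicate 1 and 25.9 TPM in replicate 2 (28.62 ± 3.82, SD, n = 2), from 2131 and 1872 expected counts. Replicate 1 was the higher, yet both Isl1 values lay above both Sox9 values, with a ratio of means of 1.37. For scale, the median detected coding gene was at 18.4 TPM, so Pitx1, Isl1 and Sox9 lay above it and the other 4 members below it.

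Six2, a homeobox factor known from nephron progenitors and needed for normal pyloric muscle, lies on the minus strand of chromosome 17 at 85684277-85688274 (ENSMUSG00000024134.11). It stood at 5.76 TPM in replicate 1 and 6.53 TPM in replicate 2 (6.145 ± 0.544, SD, n = 2), from 196 and 235 expected counts. Sox9 was 4.66 times higher, the widest step in the order after the one below Pitx1.

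Nkx2-5, the NKX homeobox factor of heart, spleen and pyloric mesenchyme, is on the minus strand of the same chromosome at 26838664-26845009 (ENSMUSG00000015579.4), and its 1 transcript in the deposited tables starts at 26841565. Its level was 6.16 TPM in replicate 1 and 4.74 TPM in replicate 2 (5.45 ± 1.00, SD, n = 2), from 148 and 121 expected counts. The higher Nkx2-5 value lay between the Six2 values, so the order of these genes, with a ratio of means of 1.13, was not resolved.

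Gata3, a zinc-finger factor of the GATA family, is best known from T cells and sympathetic neurons and is needed with Nkx2-5 for dorsal pyloric muscle. It lies on the minus strand of chromosome 2 at 9857078-9890034 (ENSMUSG00000015619.10). It was at 3.12 TPM in replicate 1 and 3.51 TPM in replicate 2 (3.315 ± 0.276, SD, n = 2), from 164 and 196 expected counts. Both values were under the lower Nkx2-5 value, and 12.4% of detected coding genes lay lower. With posterior mean TPM this step was lost, since Gata3 was at 4.44 and 4.82 TPM and Nkx2-5 at 5.99 and 4.63 TPM.

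Nkx3-2 (also called Bapx1), an NKX repressor expressed in mesenchyme of the distal stomach and in splenic and skeletal precursors, was the lowest member. The gene lies on the minus strand of chromosome 5 at 41761483-41764501 (ENSMUSG00000049691.8). It had 2.13 TPM in replicate 1 and 1.48 TPM in replicate 2 (1.805 ± 0.460, SD, n = 2), on 58 and 43 expected counts. The exact Poisson interval (95%) of the replicate 1 count was 44.0 to 75.0, so counting error alone is wide here. The gene was below both Gata3 values in both libraries, and 4.36% of detected coding genes were lower still.

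The libraries were next compared gene by gene, as the log2 of replicate 2 over replicate 1 from expected counts after TMM scaling, with an exact 95% interval that covers counting error only. Of the 6 members that averaged at least 100 counts, 0 were over 2-fold apart, and among all 12761 genes with that average 0.298% were (38 genes). Nkx3-2 had too few counts to enter this tally. Relative to the typical gene 4 members were lower and 3 higher in replicate 2. Scaling on spike-in RNA shifted the log2 ratio of every gene by -0.27, members or not, and all 7 members were then lower.

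Sox9 was the single member whose interval left out 0, with a log2 ratio of -0.21 (-0.30 to -0.12), or a fold of 0.865. It remained lower in replicate 2 under every scaling tried. The central 95% of 5828 genes with 1000 or more counts ran from -0.24 to 0.20, so the Sox9 value lay inside the range of similarly counted genes, near its lower edge. Pitx1 differed by 0.01 (-0.04 to 0.06) and Isl1 by -0.05 (-0.16 to 0.06). The sign of neither is fixed, since the ratio of TPM gave -0.05 for Pitx1 and 0.02 for Isl1.

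The 3 members with 100 to 300 counts were looser. Six2 was at 0.24 (-0.04 to 0.52), Gata3 at 0.23 (-0.07 to 0.54) and Nkx2-5 at -0.31 (-0.67 to 0.04), and for 2515 genes in this count range the central 95% was -0.62 to 0.55. Six2 and Gata3 turned to -0.03 each with spike-in scaling. Nkx3-2 had -0.45 (-1.06 to 0.14), where 4749 genes with 10 to 100 counts spread from -1.48 to 1.37. At these depths no difference between the embryos was resolved for these 4 genes after TMM scaling, since each interval spanned both signs.

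**Figure D2:**
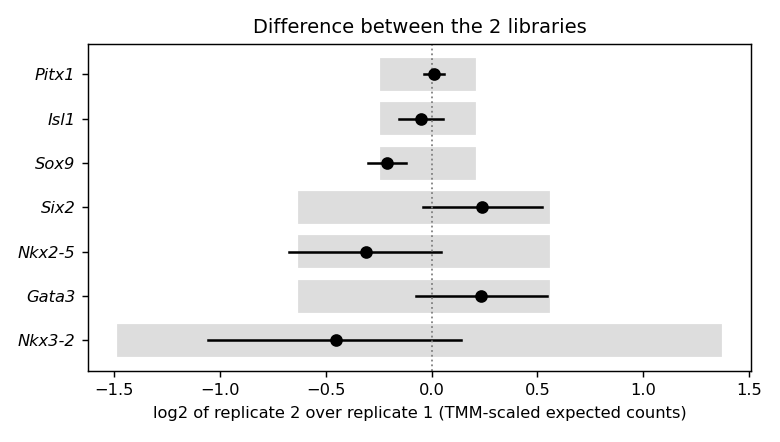
Points show the log2 ratio of replicate 2 over replicate 1 for each patterning factor, black lines the 95% counting interval, and grey bars the central 95% of all genes of similar count. All 7 points lie inside their grey bars, and the interval of Sox9 (-0.30 to -0.12) alone leaves out 0.

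Several members have more than 1 annotated transcript, and the deposited transcript tables give each one's share of the gene's TPM. For Isl1 the full-length coding transcript ENSMUST00000036060.8 held 84.5% in replicate 1 and 72.4% in replicate 2. The short coding transcript ENSMUST00000176044.2 held 10.5% and 14.4%, on 75.7 and 112 expected counts. By counts its share was 5.14% (4.09 to 6.42, exact binomial 95% interval) in replicate 1 and 7.76% (6.42 to 9.25) in replicate 2. These intervals adjoin without overlapping, but they cover counting error only and not the error of assigning shared reads to a form.

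The short transcript is of interest because it begins exon 5 of Isl1 later and so leaves out 69 bases, a run of 23 codons that keeps the reading frame. The exon lies after the homeobox, on the minus strand at chr13:116301611-116301778 (mm10). It is shown whole, 5′ to 3′, from the GENCODE M21 transcript, with the 69 bases missing from the short form (chr13:116301710-116301778) in capitals.
Isl1 exon 5: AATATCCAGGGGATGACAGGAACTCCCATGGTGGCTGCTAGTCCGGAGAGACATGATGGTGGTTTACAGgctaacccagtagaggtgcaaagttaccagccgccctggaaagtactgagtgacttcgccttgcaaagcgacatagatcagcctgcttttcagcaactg
The tables hold estimates made from reads that both forms mostly share, and reads across the 2 splice junctions were not counted here.

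An Isl1 transcript with a retained intron, ENSMUST00000176444.1, was at 0 counts in replicate 1 and 34.4 counts in replicate 2, where it took 8.42% of the TPM. The posterior mean shares of this form were 4.25% and 9.38%, so the 0 depended on the estimator. The mean transcript length assigned to Isl1, by which its TPM is corrected, was 2345 nt in replicate 1 and 2140 nt in replicate 2. Isl1 had fewer counts but a slightly higher TPM in replicate 2.

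Pitx1 was split almost identically in both libraries. Its long coding transcript ENSMUST00000021968.6 held 88.6% and 88.7%, and the coding transcript ENSMUST00000173618.1 of 644 nt held 11.4% and 11.3%. Because the latter is short, it took 2.91% and 2.87% of the gene's counts. Its region overlaps Gm28760, a noncoding gene on the same strand with 57.0 and 38.5 expected counts, and neither gene had whole counts, so reads were shared out between them.

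Six2 came nearly all from ENSMUST00000163568.3, at 100% in replicate 1 and 97.2% in replicate 2. The 5.66 counts of the other Six2 transcript in replicate 2 are too few to separate the libraries. Nkx2-5, Nkx3-2 and Sox9 each had 1 annotated transcript.

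**Figure D3:**
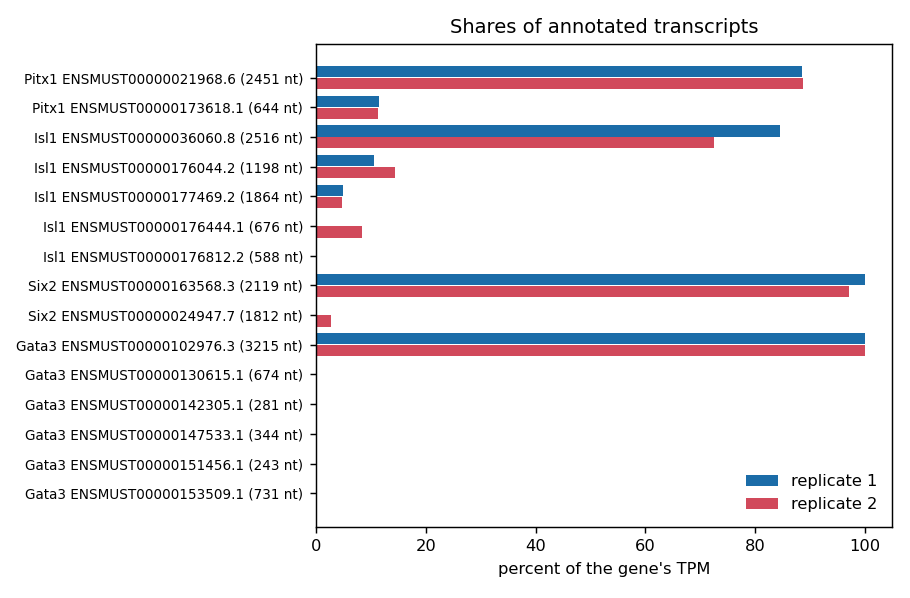
Bars show the percent of a gene's TPM assigned to each annotated transcript of Pitx1, Isl1, Six2 and Gata3 in replicate 1 (blue) and replicate 2 (red), with transcript length in nt. Isl1 is the gene whose main form differs most between libraries (84.5% and 72.4%), while Pitx1 repeats at 88.6% and 88.7%.

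All Gata3 counts in both libraries were given to 1 of its 6 annotated transcripts, ENSMUST00000102976.3, which starts at position 9878600 and ends the gene at 9857078. The deposited posterior means spread the gene more widely and left 67.5% and 70.2% on this form, with the rest on short transcripts that had 0 expected counts. The 250 bases before that start are shown because they are the upstream sequence of the single Gata3 start with assigned reads. They come from RefSeq (GRCm38.p6, chr2:9878601-9878850, minus strand), 5′ to 3′, with each CG dinucleotide in capitals.
Gata3 upstream: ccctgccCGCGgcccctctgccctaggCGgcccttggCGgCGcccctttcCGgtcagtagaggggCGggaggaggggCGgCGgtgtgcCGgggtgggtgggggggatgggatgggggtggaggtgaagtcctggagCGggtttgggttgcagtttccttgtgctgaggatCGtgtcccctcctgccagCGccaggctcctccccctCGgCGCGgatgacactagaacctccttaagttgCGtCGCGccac
This window is 70.0% G or C and holds 19 CG dinucleotides, against medians of 52.4% and 6 over 32851 such windows. RefSeq windows were matched for 5 of the 7 members. The one for Nkx2-5, which also ends at the base before its transcript, had 49.2% G or C and 8 CG dinucleotides. Those of Six2, Isl1 and Nkx3-2 overlap the main annotated transcript of the gene and are not described. Windows for Sox9 and Pitx1 were not analysed here.

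Neighbouring annotated genes had few counts beside the members. Gata3 is overlapped by the antisense gene Gm13256 and by 9230102O04Rik, both at 0 counts in both libraries, and by 4930412O13Rik at 2 and 0 counts. Sox9 has the divergent noncoding gene BC006965 just upstream, at 32 counts in replicate 1 and 10 counts in replicate 2. Whether counting used strand is not given in the sources used here, so reads of a member and of an antisense neighbour cannot be told apart.

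The signals that act on these factors were measured beside them. All 12 genes of a list of pyloric partners (BMP ligands, receptors and antagonists, and mesenchymal factors) were detected. The list summed to 558 TPM in replicate 1 and 522.5 TPM in replicate 2, and its median log2 ratio was -0.05 over the 11 genes that averaged at least 100 counts, where the median of all such genes was -0.01. The Wnt antagonists Sfrp2 (131 and 126 TPM) and Sfrp1 (103 and 98.7 TPM) and the stomach homeobox factor Barx1 (108 and 94.5 TPM) led it. These are levels between those of Isl1 and Pitx1.

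The ligand Bmp4 stood at 41.2 TPM in replicate 1 and 47.5 TPM in replicate 2, close to Isl1. The BMP antagonist Grem1 was at 5.68 and 5.24 TPM, between the Nkx2-5 values. None of the 11 list genes with enough counts was over 2-fold apart between the libraries. The ligand Bmp2 came nearest, at 328 counts in replicate 1 and 192 in replicate 2, a log2 ratio of -0.79. This lay outside the central 95% of genes with 100 to 300 counts (-0.62 to 0.55).

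For the Pitx1 and left-right side, 19 of 20 listed pathway genes were matched and 12 were detected. The chemokine gene Cxcl12 (140 and 132 TPM), the coactivator gene Cited2 (25.9 and 22.2 TPM) and the RNA-binding protein gene Bicc1 (20.6 and 17.1 TPM) were highest, and each also acts outside left-right patterning. Nodal itself had 7 counts in replicate 1 and 0 in replicate 2, and a count of 0 allows up to 3. Left and right sides of the stomach were not separated, so a difference between the sides could not be measured for any member.

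Within their families the members held different positions. Pitx1 was high, while its paralog Pitx3 was at 0 counts in both libraries. Isl1 led the LIM-homeobox genes, of which 1 of the 11 others passed detection (Isl2, at 7.09 and 5.71 TPM). Sox9 led its SoxE and SoxD relatives, all 5 of which were detected, from Sox5 (22.8 and 20.1 TPM) and Sox10 (12.4 in both libraries) down to Sox6 (5.36 and 5.56 TPM).

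Six2, Gata3 and the NKX members did not lead. Six5 (14.2 and 12.8 TPM) was above Six2, and Six4 (1.18 and 1.00 TPM) was the other gene of that family to pass. Gata3 was under Gata4 (37.3 and 29.7 TPM), Gata6 (11.5 and 10.4 TPM) and Gata5 (3.75 and 3.99 TPM), and above Gata2 (1.76 and 1.29 TPM) and Gata1 (0.56 and 0.58 TPM). With posterior mean TPM Gata3 was at 4.44 and 4.82 TPM. Gata5 was not compared on that estimator, so the order of Gata3 and Gata5 is not settled.

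Among NKX genes, 4 of the 12 paralogs were detected. Nkx6-3 (5.80 and 7.68 TPM), Nkx6-2 (6.51 and 4.65 TPM) and Nkx2-3 (5.22 and 4.05 TPM) overlapped the range of Nkx2-5, and Nkx6-1 (2.16 and 1.37 TPM) overlapped that of Nkx3-2. Nkx2-1 and Nkx2-6, other NKX genes, were at 0 counts in both, and a count of 0 allows up to 3. Nkx2-2 did not pass, with 29.9 counts in replicate 1 and 3 counts in replicate 2.

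**Figure D4:**
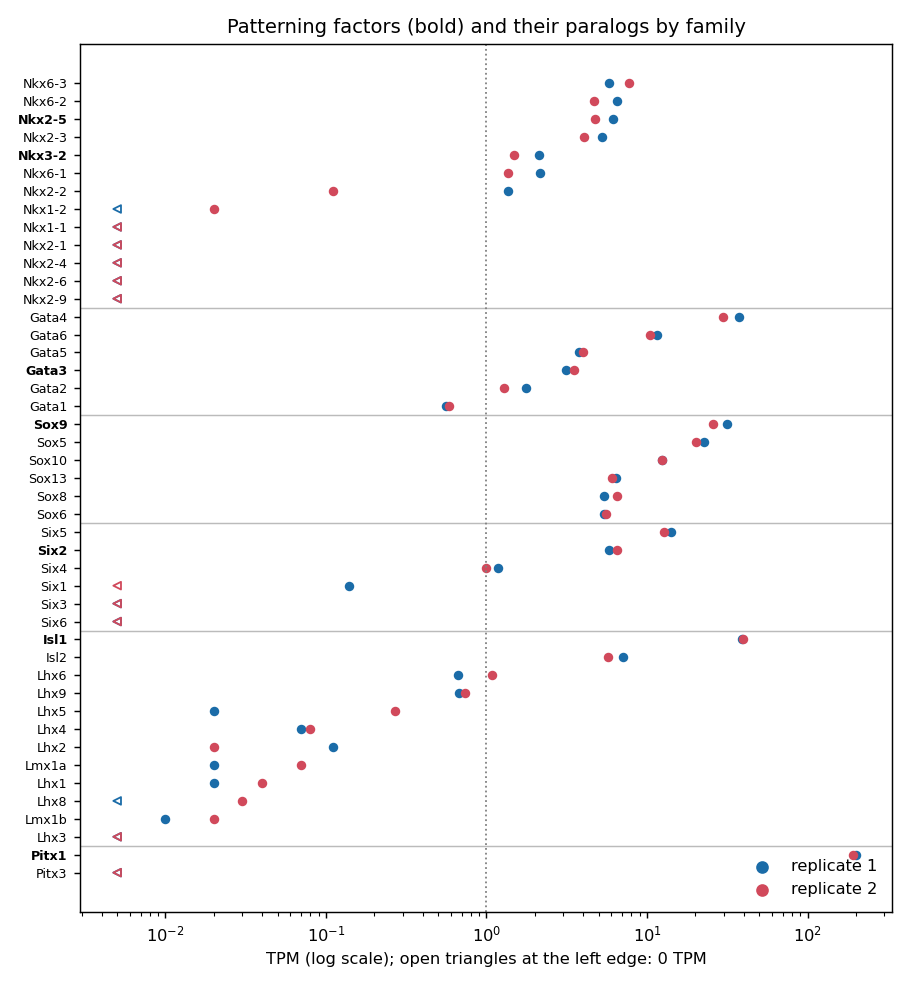
TPM (log axis) in replicate 1 (blue) and replicate 2 (red) of the patterning factors (bold) and paralogs, one block per family, with 1 TPM dotted and open triangles for 0. Pitx1, Isl1 and Sox9 top their blocks, while Six2 sits under Six5, Gata3 sits under Gata4, Gata6 and Gata5, and Nkx2-5 lies among Nkx6-3, Nkx6-2 and Nkx2-3.

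Proteins that these factors are known to bind were also transcribed. Of 6 EYA and DACH cofactors known to bind Six2 or its relatives 5 were detected, led by Eya3 (22.5 and 23.2 TPM), Eya2 (10.1 and 11.6 TPM) and Dach1 (6.69 and 6.32 TPM). Eya1, the partner of Six2 in the kidney, had 227 and 224 counts, so its 3.92 and 7.29 TPM stood on nearly equal counts. All 7 FOG, LDB and LMO cofactors of GATA and LIM factors were detected, with Lmo4 (75.2 and 73.4 TPM), Ldb1 (61.0 and 57.2 TPM) and Ldb2 (39.5 and 38.1 TPM) highest, near or above the level of Isl1.

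Smooth muscle genes were abundant in the whole stomach, and the pyloric ring was not measured apart. Of the 10 listed contractile and muscle regulator genes, all passed detection, with the highest levels for Acta2 (1929 and 1870 TPM), Actg2 (1121 and 1015 TPM) and Tagln (333 and 325 TPM). The stomach label was checked with mesenchymal markers, and all 6 were detected, with the defining genes Barx1 (above) and Foxf1 (112 and 120 TPM) both high.

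Each member is also used by other cell types, so marker lists of those cells were summed in both libraries. For Sox9, 9 of 9 stomach epithelial markers were detected (1878 TPM in replicate 1 and 1638 TPM in replicate 2). The epithelial defining genes Epcam (266 and 245 TPM) and Cdh1 (118 and 96.8 TPM) had log2 ratios of -0.06 and -0.20, beside -0.21 for Sox9. The list's median was -0.13 over its 9 genes. Of the crest and glia markers 8 of 8 were detected (202 and 187 TPM), and the defining gene Sox10 had a ratio of 0.06.

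Of 12 cartilage markers 7 were detected (42.3 and 36.2 TPM), while the defining genes were low, with Col2a1 at 2.35 and 1.84 TPM, Acan at 0.51 and 0.16 TPM and Matn1 at 0.16 and 0.09 TPM. Most cartilage genes were lower in replicate 2, among them all the defining genes, with Acan at 62 and 21 counts. Col11a1, the highest of the list, was among those that went the other way, at 1407 and 1581 counts. The list's median log2 ratio was -0.26 over the 5 genes that averaged at least 100 counts, beside -0.21 for Sox9. The part of cartilage in the Sox9 difference was not tested.

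Pancreatic markers differed most of all lists, from 232.5 TPM in replicate 1 to 11.5 TPM in replicate 2, with 7 of 13 detected and 3 of the 5 with enough counts over 2-fold apart. The defining acinar gene Cpa1 had 2203 and 30 counts and Ptf1a had 99 and 0. Ins2, the defining gene of beta cells, had 51 and 1, and Gcg of alpha cells had 66 and 20. Isl1, which islet cells express, was at 1473 and 1445 counts across the same pair of libraries, and Sox9, which pancreatic duct cells express, was lower in replicate 2. The part of pancreatic tissue in the Isl1 and Sox9 values was not tested.

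Isl1 and Gata3 are also neuronal genes. Of 12 markers of enteric and sympathetic neurons 11 were detected (364.5 and 347 TPM), with the defining gene Elavl4 at 1425 and 1544 counts. Dbh, which defines sympathetic neurons, had 14 counts in each library, under the detection threshold. Of 11 enteroendocrine markers 4 were detected (31.6 and 18.9 TPM), among them the hormone genes Gast (61 and 33 counts) and Ghrl (43 and 37 counts). How much of Isl1 came from neurons, endocrine cells or pyloric mesenchyme was not tested.

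For Gata3, 6 of 11 T cell and innate lymphoid markers were detected (29.9 and 26.6 TPM). The defining T cell gene Cd3e had 2 counts and 0, and Il7r had 27 and 12. Stratified epithelium, another Gata3 site and one for Pitx1, had 8 of 8 markers detected (554 and 441 TPM), with Krt5 at 1762 and 1380 counts and Trp63 at 38.4 and 33.9 TPM. Both lists summed lower in replicate 2 by TPM. From TMM-scaled counts, the median log2 ratio was 0.18 over the 6 lymphoid markers that averaged at least 100 counts. It was -0.16 over 7 such stratified markers. The Gata3 ratio on that scale was 0.23, and -0.03 with spike-in scaling. The part of these cells in the Gata3 value was not tested.

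For Nkx2-5, 9 of 17 heart muscle markers were detected (77.3 and 66.4 TPM). The highest by mean were Actc1 (38.3 and 32.1 TPM), Tnnt2 (10.55 and 7.64 TPM) and Pln (5.04 and 5.43 TPM). Of the defining heart genes, Myl7 was at 6.40 and 3.64 TPM, near Nkx2-5 itself (6.16 and 4.74 TPM). The other defining genes were lower, with Myl2 at 1.35 and 1.69 TPM, Nppa at 0.93 and 1.68 TPM and Myh6 at 0.32 and 0.22 TPM. The part of heart tissue in the Nkx2-5 value was not tested. For Nkx2-5 and Nkx3-2 together, 4 of 5 splenic mesenchyme markers were detected (395 and 411 TPM), a sum carried by Tcf21 (278.5 and 300.1 TPM), which stomach mesenchyme also expresses. The defining splenic gene Tlx1 had 16 counts in replicate 1 and 3 counts in replicate 2. Nkx2-5 and Nkx3-2 also had fewer counts in replicate 2, but the intervals of both ratios included 0. The splenic list's median log2 ratio was 0.04 over the 4 genes that averaged at least 100 counts. The part of splenic tissue was not tested.

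For Six2, 5 of 10 nephron markers were detected (92.4 and 83.8 TPM), mostly Osr1 (60.6 and 54.9 TPM) and Wt1 (18.3 and 13.7 TPM), which are also mesothelial and mesenchymal genes. The defining nephron progenitor genes were low, with Cited1 at 3.92 and 2.78 TPM and Pax2 at 2 counts and 1. For Pitx1, 1 of 8 limb markers passed (Prrx1, 413 and 461 counts), and the hindlimb gene Tbx4 had 0 counts and 1. Of 7 pituitary markers 1 passed, Pomc at 1.89 and 1.85 TPM, and the defining gene Cga was at 0 counts in both libraries. At the distal edge of the dissection, 6 of 8 intestinal markers were detected (140 and 125 TPM), with the defining gene Cdx2 at 0.85 and 0.96 TPM.

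**Figure D5:**
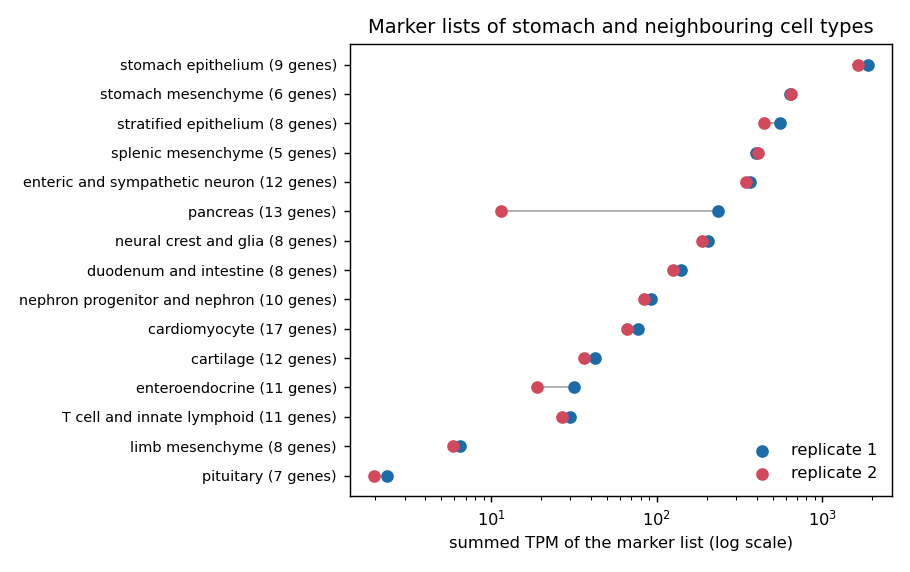
Summed TPM (log axis) of 15 marker lists in replicate 1 (blue) and replicate 2 (red), with the number of genes in each list. The pancreas list is far lower in replicate 2 (232.5 against 11.5 TPM), and the limb and pituitary lists, cells known for Pitx1, have the smallest sums.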

How the data were processed

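Total RNA from 2 stomachs of E14.5 B6NCrl embryos was sequenced (10 ng of RNA longer than 200 nt and added spike-ins, per the labels). The authors deposited 1 gene table and 1 transcript table per library, on mm10 with GENCODE M4 per the deposited notes. For the aligner and counter, programs and settings are not given in the sources used. The deposited expected counts are estimated reads per gene, not normalized. The deposited TPM values are scaled per length to a total that includes spike-ins. The deposited percent values are a transcript's share of its gene's TPM. Total expected counts were 25072242 and 25599910, of which spike-ins took 5.60% and 6.71%. Spike-ins and 26248 entries named only by a number were left out of library sizes. The numbered entries took 15.5 and 25 counts.

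Symbols were matched for 42462 of 43346 gene identifiers through GENCODE M21, whose coordinates on the same assembly are printed. Ratios used TMM sizes from edgeR 4.0.16 in R 4.3.3, with 0.5 added to each count. Genes averaging at least 100 counts and differing over 2-fold were tallied, and the ratio procedure was tested on simulated data. Intervals and floors (3 counts for a count of 0) cover counting error only, since PCR reads without molecular identifiers are not independent molecules. A ratio of 1 library to 1 library has no p-value, and the SD of 2 libraries holds differences between embryos, including sex, and between preparations. Members, 11 gene lists and 15 marker lists were chosen with earlier results of these data known, and a list's counts are descriptions. All 7 members, all paralogs, overlapping genes, the 3 highest genes of each list and defining markers could be named, and Nodal, Barx1, Grem1 and Bmp4 were named in any case. Bmp2 was named outside these rules, for its ratio. A few of the genes covered by these rules are not reported here. Alternatives were DESeq2 1.42.0 size factors, other scalings, thresholds and estimators, and each library alone. Other tools were matplotlib 3.10.9, scipy 1.17.1, pandas 2.3.3 and numpy 2.4.6 in Python 3.11.15.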

Additional observations from a re-analysis of the deposited data

How the results depend on the processing

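No member was over 2-fold apart between the libraries under any of the 5 alternatives tried for that tally, and all 7 were detected under every alternative except a threshold of 2 TPM, which left 6. Over nuclear genes only, without spike-ins and mitochondrial genes, the mean TPM became 235 for Pitx1, 47.1 for Isl1, 34.3 for Sox9, 7.38 for Six2, 6.53 for Nkx2-5 and 3.98 for Gata3. With posterior mean TPM, Pitx1 was at 189 and Gata3 at 4.63. Scaling on spike-ins shifted every log2 ratio by -0.27, to -0.26 for Pitx1, -0.32 for Isl1 and -0.48 for Sox9. The ratio of TPM for Pitx1 was -0.054. Of 223 list genes, 3 were over 2-fold apart, against 17 with a mean count of 10 or more, 8 at 1.5-fold and 6 with spike-in scaling. Over all genes the 38 became 631, 160 and 63 under the same settings. By expected counts the top transcript share was 88.4% for Isl1 and 97.1% for Pitx1, and by posterior mean it was 95.1% for Six2 and 68.9% for Gata3. The cause of each shift was not tested beyond what the setting itself changes. No paired analysis was possible because the study has 1 group. Depth limits Nkx3-2, Nkx2-5, Gata3 and Six2 most.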
